A study of Homo sapiens with 2 samples.

Results

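The 35 interferon-stimulated genes described here were measured by droplet single-cell RNA-sequencing in blood-generating heart-forming organoids (BG-HFOs), and they are 35 of the 36601 genes listed in the count matrices. They were chosen by symbol as widely known targets of interferon, with earlier results of these data known, and were selected on their share of unique molecular identifiers (UMIs, 1 per captured transcript) per barcode, by lineage and by depth. Shares by lineage and depth are therefore given as a description. The 2 libraries came from 2 single BG-HFOs, 32.7 and 33.10, each dissociated on day 14 of differentiation. Both organoids were grown from hES3 NKX2.5-eGFP, a human embryonic stem cell line that reports the cardiac gene NKX2.5 with green fluorescent protein. They were Matrigel-embedded aggregates taken through WNT modulation and given cytokines and growth factors for blood and endothelium, and neither organoid was treated with interferon according to the labels or methods. No untreated HFO, second time point or second cell line was analysed here, so each organoid is 1 library of the same group.

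Interferons are secreted proteins that cells make after sensing foreign or misplaced nucleic acids. Type I interferons bind the receptor pair IFNAR1 and IFNAR2, whose kinases JAK1 and TYK2 phosphorylate STAT2. STAT2 and IRF9 are part of the complex ISGF3, which binds interferon-stimulated response elements in promoters and raises the transcription of antiviral genes. Some of the products block virus entry, others bind foreign RNA, modify proteins with the ubiquitin-like ISG15, or feed back on the pathway as sensors, transcription factors and inhibitors. Embryonic stem cells are known to respond weakly to interferon, and many differentiated cells keep a basal level of these genes.

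The core of the response element was searched for as GAAA, any 2 bases and GAAA again, on both strands of the 250 bases before the RefSeq start of each gene (GRCh38.p14), counting overlapping matches. Of the 35 members, 27 were in the promoter table and 16 of these held a match (59.3%), against 1061 of all 35116 promoters (3.02%). Of the 21 listed members with a median difference of 2-fold or more between the organoids (below), 13 held a match, as did 3 of the other 6. The listed members without a match were STAT2, IRF1, IRF9, DDX58, OAS1, MX1, HERC6, RSAD2, CMPK2, XAF1 and SAMD9L. IFIT2 and USP18, described at length below, were not in the promoter table. The following stretches are examples from members that held a match and are described below, and none overlapped an exon of GENCODE v44. Matches are in capitals and may overlap, and each stretch is read 5′ to 3′ along the strand of its gene.
IFIT1 (chr10:89392492-89392539, plus strand, nearest match 93 bases before the start): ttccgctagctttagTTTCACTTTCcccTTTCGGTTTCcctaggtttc
IFIT3 (chr10:89327826-89327894, plus strand, nearest match 112 bases before the start): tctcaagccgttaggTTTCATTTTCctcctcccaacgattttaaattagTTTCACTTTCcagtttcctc
HERC5 (chr4:88456979-88457064, plus strand, nearest match 64 bases before the start): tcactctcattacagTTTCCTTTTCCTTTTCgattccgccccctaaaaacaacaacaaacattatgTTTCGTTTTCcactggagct
ISG15 (chr1:1013369-1013409, plus strand, nearest match 97 bases before the start): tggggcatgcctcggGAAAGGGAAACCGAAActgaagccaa
IFI27 (chr14:94110613-94110660, plus strand, nearest match 85 bases before the start): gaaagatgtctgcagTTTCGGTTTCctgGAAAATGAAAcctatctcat
IFITM3 (chr11:320876-320927, minus strand, nearest match 25 bases before the start): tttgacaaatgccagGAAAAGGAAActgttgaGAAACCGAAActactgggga
A match describes letters in the window and is not evidence of binding. IFIT1, IFIT3 and HERC5 are described with the megakaryocyte cluster below, ISG15 and IFI27 with the organoid difference, and IFITM3 was the most abundant member in all 8 classes of 32.7. In the GENCODE annotation the stretches of IFIT3, ISG15, IFI27 and IFITM3 lie within the span of the gene outside its exons, and those of IFIT1 and HERC5 lie before it.

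Of 16866 deposited barcodes in organoid 32.7 and 19948 in 33.10, 16792 and 19893 passed the filter, and 100 barcode sequences occurred in both libraries. Clusters were built without the members and the interferon pathway genes, then named from fixed markers. Endothelial cells (Endo, 3989 and 3975 cells in 32.7 and 33.10), cardiomyocytes (CM, 2037 and 1979), mesenchymal and epicardial cells (Mes, 4021 and 4160) and posterior foregut endoderm (PFE, 466 and 33) made up the non-blood classes. Megakaryocytes (Mk, 1596 and 4420), erythroid cells (Ery, 1212 and 2341), monocytes and macrophages (Mo/Mo-phage, 1343 and 452) and granulocyte-lineage cells (Gran, 550 and 206) made up the blood classes. The remaining 1578 and 2327 cells lay in unnamed clusters that each raised markers of unrelated classes, and 46.1% and 63% of them were marked as doublets. All 10 Endo, 11 CM, 9 PFE, 9 Mk and 10 Ery markers were highest in their own class in both organoids, as were 11 of 13 Mes, 9 of 10 Mo/Mo-phage and 6 of 8 Gran markers. PFE in 33.10 rests on 33 cells, so its values are imprecise. Among clusters kept in a class, 1 Ery cluster had 43.2% and 76.8% of its cells marked as doublets, 1 Mk cluster 90.3% and 88.7%, and the smallest CM cluster 8.41% and 84.6%.

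The members took a larger share of the UMIs in organoid 33.10 than in 32.7 in all 8 classes. In Endo the share was 0.365% in 32.7 and 0.831% in 33.10, in CM 0.233% and 0.451%, and in Mes 0.705% and 1.36%. In PFE it was 0.303% and 0.474%. The share was 0.342% and 0.707% in Mk, 0.123% and 0.309% in Ery, 0.526% and 0.948% in Mo/Mo-phage, and 0.22% and 0.403% in Gran. The ratio between the organoids therefore lay between 1.56 in PFE and 2.51 in Ery, and in each of the 24 clusters the share was also higher in 33.10, by 1.56-fold to 3.44-fold. With 1 library per organoid there is no test of this difference, and organoid, dissociation and library cannot be told apart.

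Few genes differed this much between the libraries. Among genes with a mean of at least 5 CPM (UMIs of a gene scaled to 1000000 UMIs of the class), 0.597% of 11718 were at least 2-fold higher in 33.10 in Endo, against 24 of the 30 members above that level. The same counts were 11 of 24 members against 0.303% of all genes in CM, 18 of 29 against 0.58% in Mes, and 19 of 33 against 0.476% in Mk. They were 18 of 26 against 1.26% in Ery, 17 of 35 against 0.652% in Mo/Mo-phage and 17 of 31 against 1.12% in Gran. In PFE, 4 of 28 members were at least 2-fold higher against 6.3% of all genes. The mean was taken over both organoids, so a gene under 5 CPM in 32.7 could enter through its level in 33.10. In Ery this held for IFIH1, IFIT5, OAS1, OAS3, USP18, HERC6, IFI44 and TRIM22, all among the 18. The members were also chosen with earlier results of these data known, so the contrast with all genes is a description. At least 2-fold lower members numbered 2 of 28 in PFE and 1 of 26 in Ery (IFIT2), against 6.41% and 0.0833% of all genes. In the other 6 classes they numbered 0, against 0.111% (Endo) to 1.4% (Gran) of all genes. These low counts are not read as a result about the members. The median log2 difference of the members was 1.78 in Endo, 0.84 in CM, 1.29 in Mes, 1.14 in Mk, 1.34 in Ery, 0.96 in Mo/Mo-phage and in Gran and 0.46 in PFE, while that of all genes lay between 0.01 and 0.08. Median mitochondrial shares were 4.19% and 4.06% in Endo, 3.24% and 2.96% in Mes and 5.07% and 4.97% in Mk, and lower in 33.10 by more in PFE (4.48% and 2.16%), Ery (4.55% and 3.25%) and Mo/Mo-phage (4.92% and 3.64%). Their part in the difference was not tested.

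**Figure D1:**
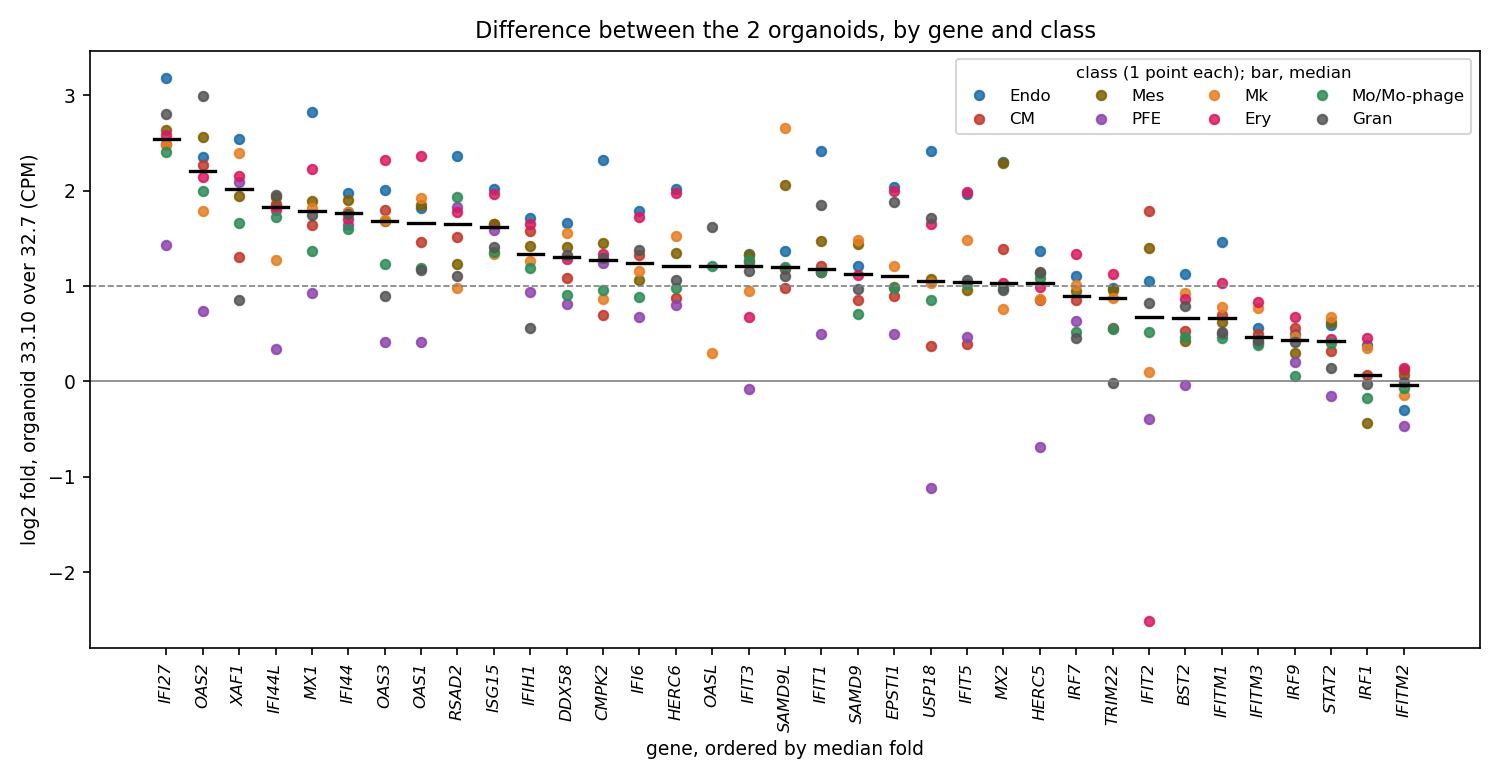
Log2 ratio of CPM in organoid 33.10 over 32.7 (vertical axis) for each member (horizontal axis, ordered by median), with 1 point per class that had more than 3 UMIs in each organoid and a bar at the median over classes. The dashed line marks a 2-fold difference. Of the 35 medians, 25 lie at or above it, and IRF1 and IFITM2 lie near 0. The share of all genes at or above it was not counted.

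Over the classes, 25 of the 35 members had a median ratio of 2 or more, 5 of 1.5 to 2 and 5 below 1.5, and 23 were higher in 33.10 in all 8 classes. How many of all genes do so was not counted, so these counts are not read as particular to the members. IFI27, a small membrane protein used in blood as a marker of interferon exposure, had the largest median ratio at 5.8. Its level was 38.5 CPM in 32.7 and 348 CPM in 33.10 in Endo, 214 and 1326 CPM in Mes, 243 and 1281 CPM in Mo/Mo-phage and 30.8 and 185 CPM in Ery. IFI6, its relative, went from 494 to 1709 CPM in Endo and from 1225 to 2550 CPM in Mes. Both genes were higher in 33.10 in 8 of 8 classes.

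The ubiquitin-like modifier ISG15 was between 2.52-fold (Mk) and 4.05-fold (Endo) higher in 33.10. Its level was 387 and 1566 CPM in Endo, 761 and 2391 CPM in Mes, 772 and 1946 CPM in Mk and 185 and 720 CPM in Ery. HERC5, the ligase that attaches ISG15, and the related HERC6 had median ratios of 2.04 and 2.32.

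Antiviral effectors were also higher in 33.10. MX1, a dynamin-like GTPase that traps viral nucleoproteins, was at 34.6 and 244 CPM in Endo, 94.9 and 352 CPM in Mes, and 156 and 404 CPM in Mo/Mo-phage. The synthetases OAS1, OAS2 and OAS3, which make the oligoadenylate that activates RNase L, had median ratios of 3.15, 4.62 and 3.21. XAF1, an antagonist of the apoptosis inhibitor XIAP, had a median ratio of 4.05, and IFI44 and IFI44L had ratios of 3.39 and 3.54. RSAD2 (viperin, which makes a chain-terminating nucleotide) and its genomic neighbour CMPK2, a nucleotide kinase, had median ratios of 3.14 and 2.41. The cytosolic RNA sensors DDX58 (RIG-I) and IFIH1 (MDA5) had ratios of 2.46 and 2.53. EPSTI1, SAMD9, SAMD9L and TRIM22 were at 2.15, 2.18, 2.29 and 1.83, with TRIM22 at 27.7 and 27.3 CPM in Gran.

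The members nearest to the receptor and the abundant entry inhibitors differed least. STAT2 and IRF9, components of ISGF3, had median ratios of 1.34 and 1.35, and IRF7, which amplifies the interferon response, 1.86. IRF1, a target shared with interferon gamma, was at 11.3 and 14.7 CPM in Endo but 16.1 and 11.8 CPM in Mes, with a median ratio of 1.05. IFITM3 and IFITM1, which block fusion of viruses with the endosome, had ratios of 1.38 and 1.58, and BST2 (tetherin, which holds budding virions) 1.58. IFITM2 was higher in 33.10 in 3 of 8 classes, with 523 and 425 CPM in Endo and 407 and 442 CPM in Mes. Reads of the near-identical IFITM1, IFITM2 and IFITM3 may have been split between them by the alignment, so their single levels are uncertain. Without these 3 genes the ratio of the summed share rose to 3.56 in Endo, 2.55 in Mes and 2.41 in Mk.

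Genes of the pathway that were not among the members were compared in the same way, and the genes named here and in the account of MHC class I and interferon gamma targets that follows were chosen after their values were seen. All 6 interferon receptor genes had median ratios between 0.895 and 1.06. The kinases JAK1, JAK2 and TYK2 were at 1.02, 1.19 and 0.998. Of the sensing and induction genes, 8 of 12 had more than 3 UMIs per organoid in at least 4 classes, and their ratios lay between 0.899 (TMEM173, which encodes STING) and 1.11 (IKBKE).

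Of 13 genes of MHC class I presentation, 4 had a median ratio of 2 or more and 3 of 1.5 to 2. These 4 were PSMB9 (2.69) and PSMB8 (2), subunits of the immunoproteasome, the peptide transporter TAP1 (2.04) and NLRC5 (2.47), the activator of class I genes. B2M, the light chain of class I, had a median ratio of 1.41 (lowest 1.18, highest 1.99). It was at 1063 and 2119 CPM in Endo and 1646 and 2717 CPM in Mes. HLA genes are polymorphic and share reads, so the levels of single HLA genes are uncertain. SOCS3, an inhibitor of cytokine receptors, was lower in 33.10 in 8 of 8 classes (median ratio 0.771), and TRIM25, which activates RIG-I, was higher in 8 of 8 (1.49). The share of all genes with such medians, or with 1 direction in 8 of 8 classes, was not counted. Of 10 interferon gamma targets, 9 had a ratio in at least 4 classes, with a median of 1.12. GBP1 (3.71) and CXCL11 (2.57) were at 2 or more and CXCL10 at 0.395. The ratios of CXCL10 and CXCL11 rest on few cells. In 32.7, 10 barcodes held 93.1% of the 903 CXCL10 UMIs and 73.1% of the 186 CXCL11 UMIs. In 33.10 the same shares were 42.2% of 419 and 26% of 334.

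**Figure D2:**
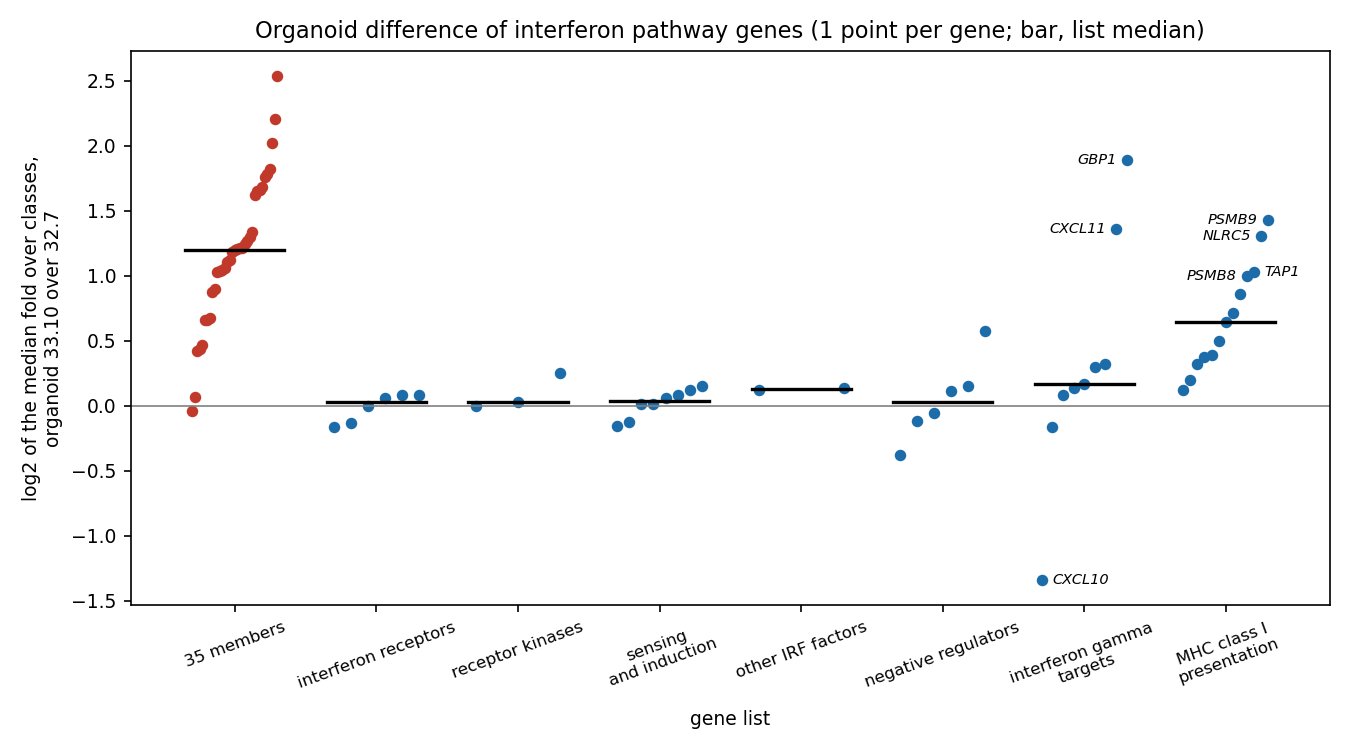
Log2 of the median ratio over classes, organoid 33.10 over 32.7, for each of the 35 members (red) and for the other genes of the interferon pathway by list (blue; 1 point per gene with a ratio in at least 4 classes; bars, list medians). The receptors lie between 0.895 and 1.06 as ratios, while 4 genes of MHC class I presentation and 2 interferon gamma targets reach 2 or more and CXCL10 lies at 0.395. The ratios of CXCL10 and CXCL11 rest on few cells.

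The expression of interferons themselves was near the detection limit. Of 21 listed genes for interferons, 10 had no UMI in any cell. IFNB1, which encodes interferon beta, had 34 UMIs in 9 cells of 32.7 and 197 UMIs in 13 cells of 33.10. No IFNB1 UMI was found in 3989 and 3975 Endo cells, a count of 0 that allows a share of cells with a UMI of up to 0.0752% and 0.0755% (3 counts of the total; the exact 95% Clopper-Pearson upper limits are 0.0924% and 0.0928%). The share was 0.125% of Mk cells in 32.7 (exact 95% Clopper-Pearson interval 0.0152% to 0.452%) and 0.113% in 33.10 (0.0367% to 0.264%), with median depths of 6278 and 6876 UMIs in Mk and 7468 and 6735 in Endo. Such intervals cover counting error only. Mes, with 0.0721% of cells in 33.10 (0.0149% to 0.211%) and 0 in 32.7, overlapped Mk, so a share this low is not read as a difference between classes. IFNG had 6 UMIs in 2 cells of 32.7 and 0 in 33.10.

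By lineage, the summed level was highest in Mes (mean 1.03% ± 0.46 of UMIs, SD, n = 2) and lowest in Ery (0.216% ± 0.131). Between these stood Mo/Mo-phage (0.737% ± 0.299), Endo (0.598% ± 0.329), Mk (0.524% ± 0.258), PFE (0.389% ± 0.121), CM (0.342% ± 0.154) and Gran (0.312% ± 0.129). The SD holds the difference between the organoids described above, and neighbours in this order do not differ beyond it. Within each organoid all classes stood in this same order, with Mes and Mo/Mo-phage as the top 2 classes and Ery the lowest. Globin transcripts made up 10.2% and 9.27% of UMIs in Ery, and without them the members held 0.137% and 0.34% of the rest, still the lowest share of all classes. With marked doublets removed, the Ery share was 0.0801% and 0.209%.

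**Figure D3:**
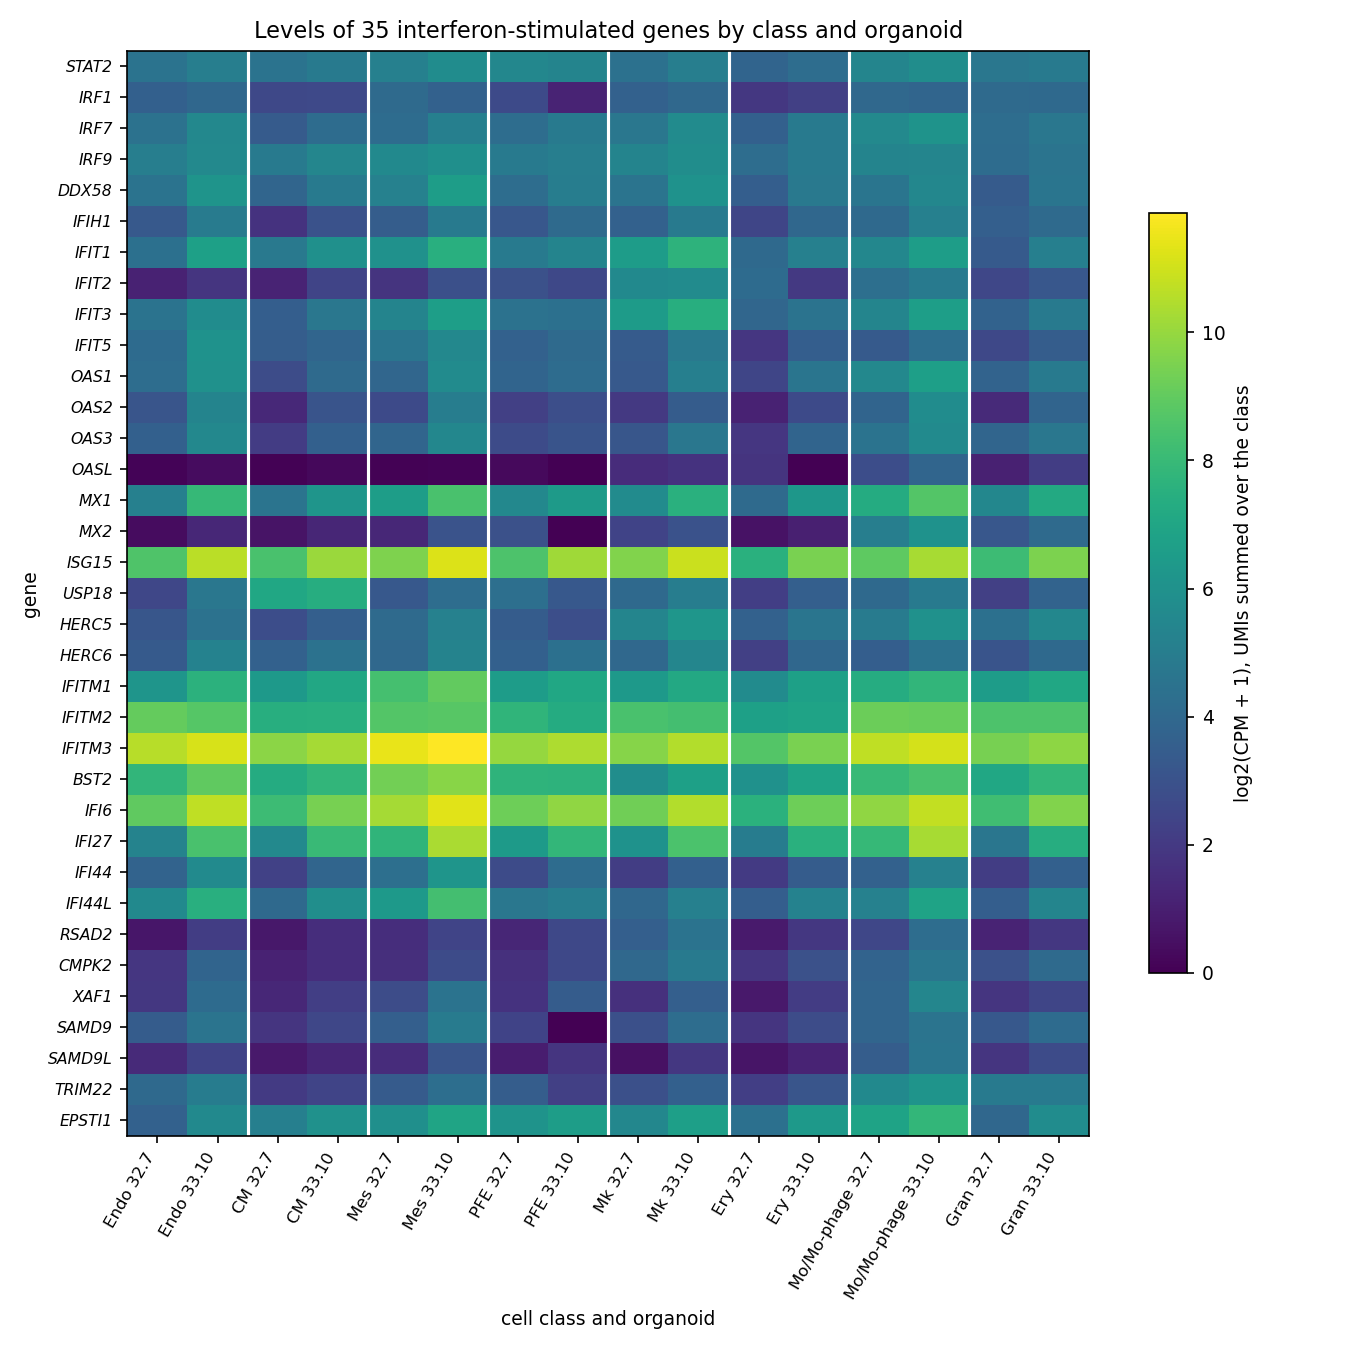
Level of each member (rows) in each class and organoid (columns) as log2(CPM + 1) of UMIs summed over the class. IFITM3 is the most abundant row in 32.7 and in most classes of 33.10 (ISG15 exceeds it in Mk, at 1946 against 1423 CPM). The right-hand column of most pairs (33.10) is brighter. USP18 in CM, IFIT2 in Mk and MX2 in Mo/Mo-phage stand out from their rows.

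Members differed in the class where they were highest. IFITM3 reached 2819 and 3707 CPM in Mes against 405 and 720 CPM in Ery, and IFITM1 330 and 507 CPM in Mes against 70.5 and 194 CPM in Endo. BST2 was at 641 and 855 CPM in Mes and 55.9 and 107 CPM in Mk. MX2, a relative of MX1 that restricts virus uncoating at the nucleus, was at 32.9 and 64.7 CPM in Mo/Mo-phage and at 0.306 and 1.5 CPM in Endo. OASL, SAMD9L, XAF1, TRIM22, EPSTI1 and OAS1 were also highest in Mo/Mo-phage in both organoids, for example TRIM22 at 47.9 and 70.3 CPM. IFIT1, IFIT2 and IFIT3, which bind foreign RNA ends, were highest in Mk, at 92.4 and 205, 47.8 and 51.2, and 88.7 and 172 CPM. This rank rested on 1 Mk cluster, described below. In the other Mk clusters they were at 42.5 and 119, 4.79 and 17.7, and 25.9 and 76 CPM. Mes was above these levels for IFIT1 (63.5 and 175 CPM) and IFIT3 (39.3 and 97.8 CPM), and Mo/Mo-phage for IFIT2 (19 and 27.4 CPM).

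Differences between lineages were fitted with the edgeR quasi-likelihood test on UMIs summed per class and organoid, with Benjamini-Hochberg adjustment over 22247 genes (threshold 0.05). Because the 2 organoids differ in these genes, the fit was also made with the organoid as a block, since all classes of an organoid come from the same organoid. Without the block the counts describe the size of the differences against the spread between organoids. With it they describe that size against the spread left after the shift shared by all classes of an organoid. Since the members were selected with their levels by lineage known, the counts give no independent support. No p-value is given for a single member, and nothing is read from a count beside its background.

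In Endo, 0 members were higher and 5 lower than in Mes, where 23.2% of all genes were called higher and 27.8% lower. The 5 were IFITM1 (log2 difference -1.62 ± 0.43 SE), MX2, BST2, STAT2 and IFITM3, of which IFITM3 was called in 5 of 12 alternatives. With the organoid block, 3 members were higher and 19 lower (27.1% and 31.2% of all genes). Against CM, 10 members were higher in Endo and 1 lower (27.3% and 30% of all genes), led by IFITM2 (1.48 ± 0.16) and TRIM22 (2.67 ± 0.44). The block gave 23 and 2 (30.8% and 32.8%).

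Mo/Mo-phage exceeded Mk for 6 members and fell below it for 0, where 21.3% of all genes were higher and 20.9% lower. TRIM22, BST2, MX2, SAMD9L, IFITM2 and STAT2 were the 6, and MX2 had a log2 difference of 2.92 ± 0.66. The block gave 19 higher and 8 lower (24.1% and 23.8%). Against Endo, 9 members were higher in Mo/Mo-phage and 0 lower (23.5% and 25.8%), with MX2 at 5.79 ± 0.79 and OASL at 5.67 ± 1.0, and the block gave 20 and 2 (26% and 29.2%). In Endo, MX2 had only 12 and 54 UMIs and OASL 3 and 11, so the size of these 2 differences is imprecise.

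In Ery, 0 members were higher and 11 lower than in Mk (19.5% and 22.5% of all genes). The 11 included IFITM2 (-1.42 ± 0.16), IRF1 (-1.85 ± 0.24), IFIT1, IFIT2, IFIT3, HERC5 and RSAD2, of which HERC5 was called in 8 of 14 alternatives. The block gave 0 higher and 26 lower (25.5% of all genes lower). Leaving out the IFIT2-high Mk cluster described below, an alternative chosen after seeing the data, reduced the 11 to 7. The log2 difference of IFIT2 went from -2.18 to -0.12 without that cluster and turned to 0.10 with the block as well, and that of HERC5 from -1.54 to -0.35. In organoid 32.7, 93.2% of the IFIT2 UMIs of Ery lay in 2 cells, both marked as doublets.

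Pathway genes outside the member list were counted in the same fit, against the shares of all genes given above. Of the 6 receptor genes, 6 were higher in Mo/Mo-phage than in Mk (21.3% of all genes), 5 were higher and 1 lower in Endo than in CM (27.3% and 30%), and 3 were higher and 1 lower in Endo than in Mes (23.2% and 27.8%). Of 13 genes of MHC class I presentation, 11 were lower in Ery than in Mk and 0 higher (22.5% and 19.5% of all genes), and 1 was higher and 3 lower in Endo than in Mes. Of 10 sensing genes tested, 7 were higher and 2 lower in Mo/Mo-phage than in Mk (21.3% and 20.9%), and 6 were higher and 1 lower in Endo than in Mes.

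Within Endo, the cluster with venous markers (VE, 733 and 922 cells) and that with arterial markers (AE, 2018 and 2165 cells) were of similar median depth, 10661 and 8452 UMIs against 11654 and 8592. The share of the members was 0.642% and 1.1% in this VE cluster and 0.256% and 0.687% in the AE cluster. Of 33 members with more than 3 UMIs in each, 29 were higher in VE in both organoids, 14 of them by 2-fold or more, and 1 (IFITM2) was lower in both. How many of all genes differ this much between the 2 clusters was not counted, so these counts are not read as particular to the members. In 32.7, IFI44L reached 187 CPM in the venous cluster against 3.77 in the arterial cluster, MX1 107 against 8.78 and BST2 649 against 67.4. In 33.10, IFI44L reached 408 against 83.3 CPM, MX1 361 against 191 and BST2 812 against 340. The median VE to AE ratio was 3.56 in 32.7 and 1.89 in 33.10. The receptors IFNAR1 and IFNAR2 had VE to AE ratios of 0.716 and 1.4 in 32.7 and of 0.726 and 1.18 in 33.10. A second VE cluster of low depth (median 1449 and 1929 UMIs) held 0.46% and 1.09%. The clusters were compared after their values were seen, with no test.

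USP18 had its highest level in CM. It encodes the protease that removes ISG15 from proteins and that also binds IFNAR2 and damps signalling. Its level was 131 and 169 CPM in CM, against 4.74 and 25.1 CPM in Endo and at most 31.5 CPM in any other class, whereas the summed share of members in CM was among the lower ones (0.233% and 0.451%). Its log2 difference in Endo over CM was -3.32 ± 0.67, given as a description. The level was 143 and 172 CPM in the largest CM cluster, 159 and 167 CPM in the next and 36.1 and 91.8 CPM in the third, where 84.6% of the cells of 33.10 were marked as doublets. USP18 lies on chromosome 22 (18150118 to 18177397, plus strand, GRCh38, GENCODE v44). Of its neighbours, TUBA8 was at 0.586 and 1.16 CPM in CM, and PEX26 at 17.3 and 19.2 CPM in CM and 22.5 and 24 CPM in Endo. USP41, a near-identical copy whose reads could be exchanged with those of USP18, had 3 and 2 UMIs in CM.

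In Mk, 1 cluster of 388 and 1442 cells carried a different mixture of members from the other Mk clusters. Its median depth was 4757 and 4526 UMIs, against 1255 to 18837 and 1751 to 14845 in the other Mk clusters. The cluster was singled out as the Mk cluster with the highest IFIT2 level, after that level was seen, so the following values have no test. IFIT2 was at 304 and 189 CPM in it, against 4.79 and 17.7 CPM in the other Mk clusters. IFIT3 was at 462 and 565 CPM against 25.9 and 76 CPM, IFIT1 at 389 and 558 CPM against 42.5 and 119 CPM, and HERC5 at 197 and 242 CPM against 15 and 34 CPM. IFIT1, IFIT2 and IFIT3 lie next to each other on chromosome 10, and IFIT5, their neighbour, was raised less (18.6 and 40.1 CPM against 7.99 and 23.3 CPM). In all, 9 of the 31 members with more than 3 UMIs throughout were at least 2-fold higher in this cluster in both organoids, including DDX58, IFIH1, IRF7, RSAD2 and ISG15. How many of all genes differ this much was not counted, so this count is not read as particular to the members. Other abundant members were not raised: IFITM3 was at 511 and 1129 CPM against 891 and 1494 CPM, and IFI27 had ratios of 0.533 and 0.57 to the other Mk clusters. MX1 was close to the other Mk clusters, at ratios of 1.15 and 1.25. The ratio of 33.10 to 32.7 within this cluster was 0.621 for IFIT2 and 0.649 for OASL, and 0.947 for IRF1. The platelet chemokine CCL5, a target of IRF3 as well as a granule protein, was at 1208 and 379 CPM against 248 and 136 CPM. In 32.7, 1103 of its 2795 UMIs in the cluster lay in 1 cell, without which the level was 734 CPM.

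**Figure D4:**
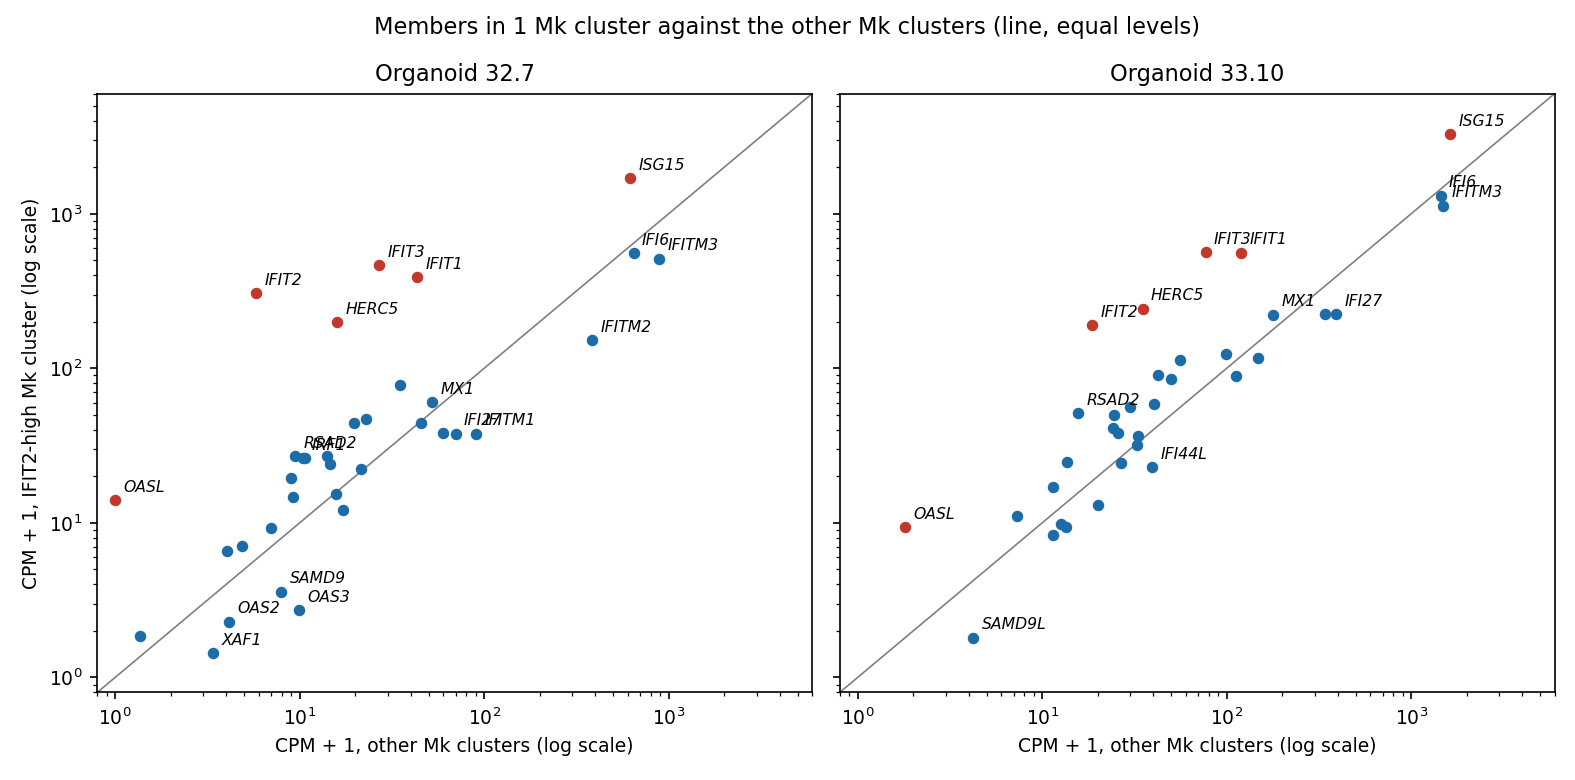
Level of each member as CPM + 1 on log axes in the IFIT2-high Mk cluster (vertical) against the other Mk clusters (horizontal), 1 panel per organoid, with a line at equal levels. Red marks ISG15, IFIT1, IFIT2, IFIT3, HERC5 and OASL, which lie above the line in both panels, while IFITM3 and IFI6 lie on or below it.

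The IFIT2 part of this pattern was concentrated in few cells. Barcodes with at least 20 IFIT2 UMIs numbered 11 in 32.7 and 26 in 33.10, and they held 53% and 32.3% of all IFIT2 UMIs. Of them 6 and 14 lay in the IFIT2-high Mk cluster, 2 were Mo/Mo-phage and 2 Ery in 32.7, and 7 of the 26 in 33.10 were unnamed cells. They carried 5138 and 2980 CPM of IFIT2, the gene they were chosen by. They also carried 2950 and 2191 CPM of IFIT1, 1674 and 1444 CPM of HERC5 and 5972 and 5817 CPM of ISG15. These levels are pooled over classes, and 6 of the 11 and 16 of the 26 barcodes were Mk. Mk cells outside this set had 733 and 1923 CPM of ISG15 and 30.4 and 66.1 CPM of HERC5. The pooled barcodes and these Mk cells differ in class makeup, so the contrast is not one within Mk. Without these barcodes IFIT2 in Mk fell from 47.8 to 18.7 CPM in 32.7 and from 51.2 to 36.2 CPM in 33.10, and in Ery of 32.7 from 16.9 to 1.15 CPM. IFIT1 in Mk moved only from 92.4 to 77.6 CPM and from 205 to 195 CPM. IFIT3 there moved from 88.7 to 74.7 and from 172 to 162 CPM, and HERC5 from 41.2 to 30.4 and from 74.6 to 66.1 CPM. ISG15 moved from 772 to 733 and from 1946 to 1923 CPM.

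Among barcodes of at least 1000 UMIs, the 12 with the highest share of member UMIs were all in this Mk cluster. The highest was a cell of 32.7 with 10.4% of 6290 UMIs, of which 250 were ISG15, 236 IFIT2, 60 IFIT1, 55 IFIT3 and 29 HERC5, with 0 of IFI6, IFI27 and MX1. Another cell of 32.7 had 14 IFNB1, 339 CXCL10 and 1103 CCL5 UMIs beside 110 of IFIT2 in 7576. A cell of 33.10 had 164 of the 197 IFNB1 UMIs of its library, in a total of 3001. Of the 11 and 26 IFIT2-rich barcodes, 2 and 5 had an IFNB1 UMI, and 3 and 6 were marked as doublets.

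Across all cells, the share of members reached 4% in 17 barcodes of 32.7 and 55 of 33.10 with at least 1000 UMIs. In the IFIT2-high Mk cluster (13 and 25 of them) a median of 96.2% and 79.8% of the member UMIs came from ISG15, IFIT1, IFIT2, IFIT3, HERC5 and OASL. In the 13 Mes barcodes of 33.10 the same 6 genes gave a median of 22%, and in the 10 Endo barcodes 23.3%. Over all cells of a class, the IFITM genes, BST2, IFI6 and IFI27 gave 79.9% and 69.2% of the member UMIs in Mes, 79% and 65.4% in Endo and 67.5% and 59.6% in the other Mk clusters, against 27.1% and 34.2% in the IFIT2-high Mk cluster.

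The number of different members per cell was compared after thinning each cell to 2000 UMIs, which left out 2588 and 1872 shallower cells. At least 5 of 21 core inducible members were then seen in 2.57% of cells of 32.7 (exact 95% interval 2.32% to 2.84%) and 12.8% of cells of 33.10 (12.3% to 13.3%). Without thinning the shares were 18.8% and 48%. In Mes the thinned share was 3.69% and 21.3%, in Mo/Mo-phage 5.08% and 21.6%, in Endo 2.41% and 15.4% and in Mk 4.28% and 12.8%. In CM it was 0.29% and 1.92%, and in Ery 0.883% and 3.15%. These counts rest on the same member UMIs as the shares above, and the intervals cover counting error over cells of 1 library per organoid only. No class can be assumed to lack these genes, so free RNA could not be measured from such a class.

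By depth of the barcode, the share of members in 32.7 was 0.453% from 500 to under 1000 UMIs, 0.524% from 5000 to under 10000 UMIs and 0.339% at 20000 UMIs and over. In 33.10 it was 0.766%, 0.928% and 0.668% in the same bins. The deepest bin thus had the lowest share in both organoids, and 33.10 was higher in every bin. Median mitochondrial shares fell from 7.45% to 4.01% in 32.7 and from 4.75% to 4.21% in 33.10 between the shallowest and deepest bins.

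Within classes the course differed. From barcodes under 2000 UMIs to those of 10000 and over, the share went from 0.518% to 0.327% in Endo of 32.7 and from 1.04% to 0.739% in 33.10. In Mk the share went from 0.582% to 0.304% and from 0.739% to 0.664%. In Mes it was lower in the shallow cells, at 0.603% against 0.674% and 1.14% against 1.28%. In CM it was 0.237% and 0.228% in 32.7 and 0.421% and 0.477% in 33.10. As a ratio the widest range was that of Ery in 32.7, from 0.331% in 306 shallow cells to 0.11% in 565 deep cells, but 0.349% and 0.323% in 33.10. Of 38 combinations of class and depth bin with at least 20 cells in each organoid, 36 had a higher share in 33.10, and the 2 exceptions were Ery from 1000 to under 2000 UMIs (0.354% and 0.296%) and from 2000 to under 5000 UMIs (0.256% and 0.238%). The part of class makeup, free RNA and doublets in the depth course was not tested.

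**Figure D5:**
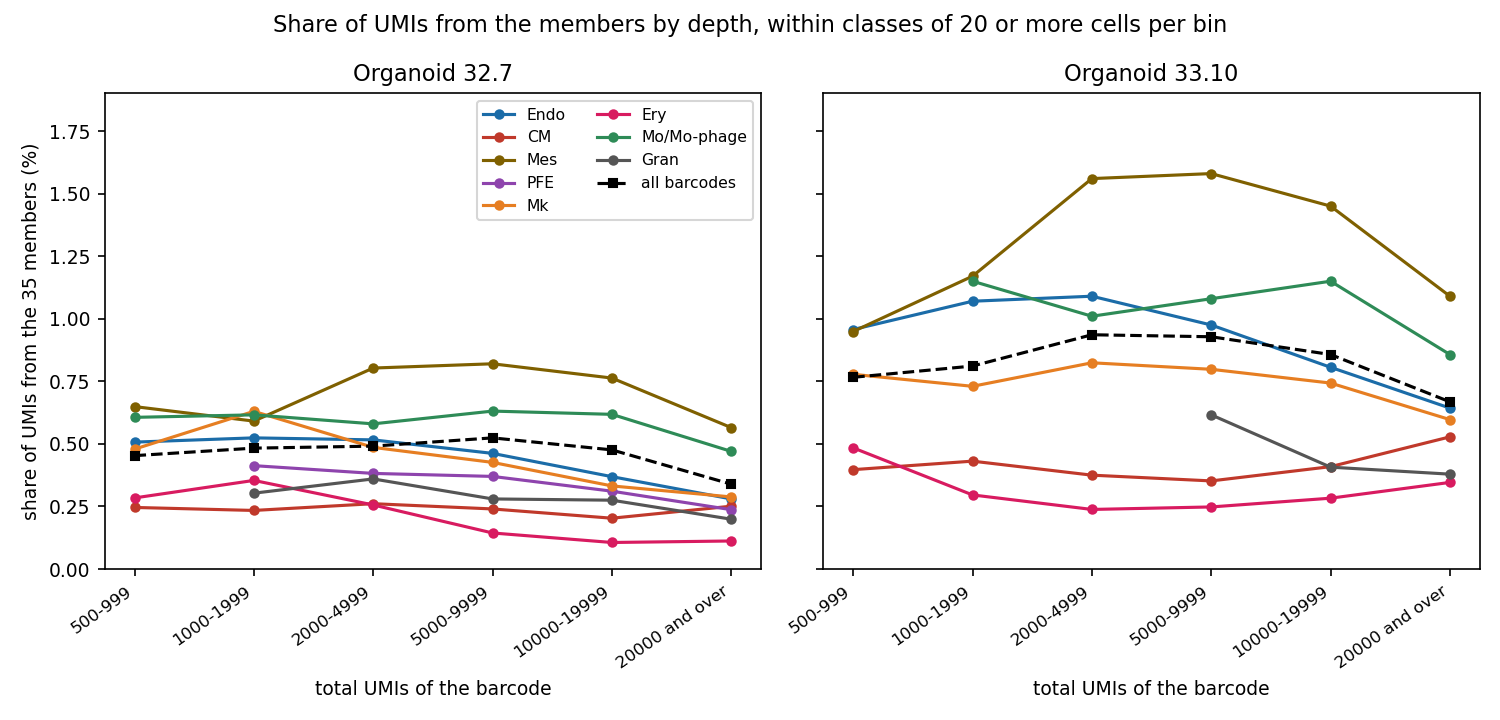
Share of UMIs from the 35 members (vertical axis, percent) by total UMIs of the barcode (horizontal axis), for each class with at least 20 cells in the bin and for all barcodes (dashed). The lines of 33.10 lie above those of 32.7 except for Ery from 1000 to under 5000 UMIs, and the share over all barcodes is lowest at 20000 UMIs and over in both organoids, at 0.339% and 0.668%.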

How the data were processed

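Single-cell suspensions of 2 day-14 BG-HFOs were sequenced with 10x Genomics 3ʹ v3.1 chemistry. Per the file headers and the study's methods, the authors made the deposited UMI count matrices with Cell Ranger 7.0.0 against GRCh38, counting intronic reads, and the files hold whole-number counts per gene and barcode (191152562 UMIs in 32.7 and 233818881 in 33.10; at least 500 per barcode). SoupX, merging and clustering of the study are not in these files.

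The members and all lists were chosen with earlier results of these data known. Cells with 50 to 11000 genes and under 30% mitochondrial UMIs were kept. Leiden clustering (scanpy 1.11.5, leidenalg 0.10.2, 13 components, resolution 0.8) used variable genes without members and pathway genes. Clusters were named from fixed markers, by a scoring rule written after the clusters were seen: at least 3 markers raised by 1 on the log2 scale, with no unrelated class scoring 50% as high. Scrublet scores were used to mark 13.5% and 16% of cells as doublets, rates that were assumed in advance, and marked cells stayed in unless stated. CPM are scaled to 1000000 UMIs of the summed class. Class sums were tested with edgeR 4.0.16 (TMM, filterByExpr, quasi-likelihood, Benjamini-Hochberg) in R 4.3.3, tested on simulated data. The classes are formed from the cells compared and n is 2 organoids. Without the block, p-values measure only the spread between these organoids. With the block, the shift shared by all classes of an organoid is taken out, and p-values measure only the spread that remains. Log2 differences and SEs of members are from the fit without the block unless it is named. Classes of an organoid share that organoid, and their deviations correlated over 28 class pairs with a median of 0.128 (lowest 0.0314, highest 0.357), which is why the organoid block stands beside each count. All members and, of the pathway lists, up to 3 genes per comparison with the largest change could be named, as could genes near 0. Coordinates are GRCh38, with all 35 members matched by Ensembl identifier to GENCODE v44. A gene of the pathway lists is not reported here.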

Additional observations from a re-analysis of the deposited data

Results flagged for a closer look

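Barcodes outside the comparisons also carried member UMIs. In cells of unnamed clusters the members took 0.389% of UMIs in 32.7 and 0.768% in 33.10, and in barcodes removed by the filter (74 and 55) 0.304% and 0.68%. They are listed because these barcodes entered no comparison, and there are no control samples to set them against. Over all cells past the filter the share was 0.421% and 0.792%.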

How the results depend on the processing

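In all 8 classes and all 6 alternatives run for it, the share of members stayed higher in 33.10; the lowest ratio was 1.3, for PFE as a mean over cells. Without IFITM1, IFITM2 and IFITM3 the mean PFE share was 0.239% (0.389% with them), and that of barcodes from 500 to under 1000 UMIs 0.38%. Thinning to 5000 UMIs gave a mean of 22.4% of cells with at least 5 core members.
Counts of members called depended more on the fit. With the organoid as replicate block (the paired fit) they were 22 for Endo over Mes (5 without it), 25 for Endo over CM (11), 27 for Mo/Mo-phage over Mk (6), 26 for Ery over Mk (11) and 22 for Mo/Mo-phage over Endo (9). The block also called more of all genes, for Endo over Mes 27.1% higher and 31.2% lower, against 23.2% and 27.8% without it. Shares of all genes for the other comparisons stand beside the counts above, and the rise in members called is not read as a result about them. Leaving out either organoid lowered the number of all genes called in each comparison. Counts of members with an organoid left out are therefore not read as a result about the members either. Leaving out 1 organoid gave 1 to 2, 4 to 7, 3 to 4, 3 to 5 and 4 to 9 in that order, the lone sample of a class being assumed to vary like the others. Without 32.7 the counts were 1, 7, 4, 5 and 4, and without 33.10 they were 2, 4, 3, 3 and 9.
In what follows, brackets give all genes called higher and lower. For Endo over Mes, resolution 1.2 gave 3 (5824 and 5862 of 22226) and removal of free RNA 3 (4715 and 6235 of 22130). For Endo over CM, no filter on low counts gave 20 (6497 and 6632 of 33193). There, doublets removed gave 20 (5810 and 6366 of 21602) and resolution 0.4 gave 7 (6043 and 6752 of 23201). For Mo/Mo-phage over Mk, no filter gave 13 (4778 and 4343 of 33193). Leaving out the IFIT2-high Mk cluster, chosen after seeing the data, gave 7 for Ery over Mk (4045 and 4838 of 22203). Together with the replicate block it gave 24 there (4820 and 5534) and 22 for Mo/Mo-phage over Mk (5096 and 4944). The log2 difference of IFIT2 in Ery over Mk then reversed, to 0.10. The cause of these changes was not tested. DESeq2 kept each count within 1.5 times. Depth limits genes near 0, such as the interferons, and 1 library per organoid leaves their difference without a test.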
